A study of Mus musculus with 24 samples.

Results

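Deletion of *Fkbp5* from glutamatergic forebrain neurons was examined in mice reared under control conditions, by comparing 6 Fkbp5Nex control mice with 6 Fkbp5lox/lox control mice, 12 of the 24 mice of the series. The samples were chosen by their labels, which give genotype, rearing condition and mouse number, and no measured value entered the choice. All 12 mice were adult females of the C57BL/6 strain and carried loxP-flanked *Fkbp5* alleles. Fkbp5lox/lox mice had no Cre recombinase and served as wild types. Fkbp5Nex mice also carried Cre inserted at the *Nex* locus, now named *Neurod6*, which removes *Fkbp5* from glutamatergic neurons of the neocortex, amygdala, olfactory bulb and hippocampus from the embryonic stage onwards. Granule cells of the dentate gyrus lie outside this deletion, as do glia, blood vessels and interneurons. Control rearing meant standard bedding and nesting material in the first postnatal days, whereas the other 12 mice of the series, also 6 Fkbp5Nex and 6 Fkbp5lox/lox, had received limited bedding and nesting (ELS). All mice had gone through behavioural tests and magnetic resonance imaging before the brains were frozen. Punches from dorsal and ventral hippocampus were taken, and their mRNA was sequenced in bulk.

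FKBP51, the product of *Fkbp5*, is a co-chaperone of the glucocorticoid receptor that lowers the receptor's affinity for its ligand and is itself induced by glucocorticoids. The hippocampus holds the pyramidal neurons of CA1, CA2 and CA3 and the granule cells of the dentate gyrus, which express *Prox1*. A round punch through frozen tissue takes these fields in proportions that depend on where it falls, and can include parts of the thalamus, the white matter or the choroid plexus, the epithelium that secretes cerebrospinal fluid. In bulk tissue, fewer cells of a type and less RNA per cell cannot be told apart.

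Total counts ran from 21421401 to 24050489 in the Fkbp5lox/lox control mice and from 19345388 to 22026853 in the Fkbp5Nex control mice. Markers of the hippocampal fields were present in all 12 mice. The CA1 marker *Wfs1* ran from 33.6 to 63.4 CPM (read counts scaled to a common library size by TMM), the CA3 marker *Grik4* from 58.9 to 134.9 CPM, and *Slc17a7*, the vesicular glutamate transporter of cortical and hippocampal excitatory neurons, from 948.1 to 1603 CPM. Fkbp5Nex mouse 12 stood apart from the other control mice. It had the highest level of the 12 mice in 13 of 18 dentate granule genes, and also the highest mean level of the astrocyte, microglia, endothelial and mural cell, meninges and mossy cell lists, and the lowest of the choroid plexus list. Values without it are therefore given beside the called genes.

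Of 16209 genes tested, 12 differed between the genotypes at a false discovery rate (FDR) below 0.02 in edgeR's quasi-likelihood test, with 5 surrogate variables in the model for variation that the groups do not describe. Expression was lower in Fkbp5Nex mice for 11 genes, 0.0679% of those tested, and higher for 1 gene, 0.00617%. The lower genes were *Fkbp5*, the dentate granule genes *Npnt*, *Prox1* and *Dsp*, the choroid plexus genes *Ttr*, *Enpp2*, *Cldn2* and *Clic6*, and *Upp1*, *Slc31a1* and *Trpm3*. The higher gene was *Gm3279*, a noncoding RNA next to the Cre insertion. The median log2 fold change over all tested genes was -0.0013, and 1422 genes had an unadjusted p below 0.05. Without surrogate variables, *Fkbp5* and *Gm3279* alone passed the threshold, and without Fkbp5Nex mouse 12 *Fkbp5* alone passed.

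*Fkbp5* itself was measured first as a check of the labels. It occupies 28399094 to 28517527 on the minus strand of chromosome 17 (ENSMUSG00000024222, build GRCm38), a stretch it shares with a few small annotated genes of either strand. In the Fkbp5lox/lox mice 28, 30, 34, 44, 50 and 74 it stood at 50.2, 47.7, 57.1, 53.9, 63.4 and 49.0 CPM. In the Fkbp5Nex mice 12, 32, 42, 52, 54 and 64 it stood at 26.5, 13.1, 8.71, 14.4, 9.97 and 12.0 CPM. The groups did not overlap, which held for 10 of 16209 genes (0.0617%) in the lower direction, *Fkbp5* among them. Means were 53.5 ± 5.95 CPM and 14.1 ± 6.39 CPM (SD, n = 6 each). The log2 fold change was -2.05 (SE 0.13, edgeR adjusted p = 4.82e-09), so that 24.1% of the Fkbp5lox/lox level remained. It lay between -2.30 and -1.91 when any one of the 24 mice was left out. Mouse 12 had the highest remaining *Fkbp5* of its group, and without it the other 5 Fkbp5Nex mice averaged 11.6 ± 2.31 CPM (SD, n = 5).

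Of the FKBP family, to which *Fkbp5* belongs and whose members are peptidyl-prolyl isomerases that bind immunosuppressants, 14 of 16 listed genes were tested. *Fkbp5* was the 1 member called, and among the others *Fkbp9* had the smallest p, with a log2 fold change of -0.21 (SE 0.07, edgeR adjusted p = 0.31). With *Fkbp5* and *Fkbp9* counted, 4 of the 14 were lower and 1 was higher with an unadjusted p below 0.05 in edgeR's test. Over all tested genes these shares were 4.9% and 3.87%. Of 17 tested steroid receptors and chaperones, 0 passed in edgeR's test, with 1 at an unadjusted p below 0.05. That member was *Nr3c2*, the mineralocorticoid receptor, with 184 to 228 CPM in Fkbp5lox/lox mice and 152 to 215 CPM in Fkbp5Nex mice (log2 fold change -0.16, SE 0.06, edgeR adjusted p = 0.415). The heat shock protein gene *Hspa1b* had a log2 fold change of 0.20 (SE 0.12, edgeR adjusted p = 0.667), and as it has a near-identical copy, *Hspa1a*, its counts are uncertain.

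Genes that glucocorticoids induce were measured because FKBP51 restrains the receptor that drives them. Of 19 tested, 0 passed the threshold in either direction in edgeR's test, while 16 had a positive log2 fold change and 4 of these an unadjusted p below 0.05. Over all 16209 genes 8006 were positive, and 627 (3.87%) were positive with an unadjusted p below 0.05. The median of the list was 0.09, against -0.0013 over all tested genes. *Hif3a*, which encodes a hypoxia-inducible factor subunit, ran from 2.16 to 4.84 CPM in Fkbp5lox/lox mice and from 2.79 to 5.27 CPM in Fkbp5Nex mice, overlapping ranges with a log2 fold change of 0.58 (SE 0.18, edgeR adjusted p = 0.268). *Fam107a*, an actin-associated stress-induced gene, ran from 315 to 417 CPM and from 344 to 499 CPM (log2 fold change 0.27, SE 0.10, edgeR adjusted p = 0.425). Mouse 12 had the highest value of the 12 mice for both genes. Immediate early genes, which report recent neuronal activity, gave 0 of 11 past the threshold and 0 at an unadjusted p below 0.05 in edgeR's test. *Fosb* had a log2 fold change of 0.19 (SE 0.14) and *Egr2* of -0.54 (SE 0.44), with *Egr2* at only 1 to 28 reads per mouse.

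Next to the Cre insertion, *Gm3279* was higher in Fkbp5Nex mice, while *Neurod6*, which carries the insertion, had a negative log2 fold change that did not pass. *Neurod6* (ENSMUSG00000037984, chromosome 6, 55677822 to 55681263, minus strand) encodes a bHLH transcription factor of forebrain excitatory neurons. *Gm3279* (ENSMUSG00000108063, chromosome 6, 55684571 to 55694574, plus strand) is annotated as a long intergenic noncoding RNA and starts 3308 bases from the *Neurod6* start, on the other strand. No annotated gene overlaps either. The promoters of the pair are shown because the difference in *Gm3279* lies beside the engineered locus. The reference sequences below, from RefSeq on GRCm38.p6, run from 250 bases before to 50 bases after each start, so that the last 50 bases are transcribed. They are in lower case, with any CAGATG or CATCTG (an E-box that bHLH factors bind, read on both strands) in capitals. Neither of this pair holds one. The windows are chr6:55681214-55681513 on the minus strand for *Neurod6* and chr6:55684321-55684620 on the plus strand for *Gm3279*.
Neurod6: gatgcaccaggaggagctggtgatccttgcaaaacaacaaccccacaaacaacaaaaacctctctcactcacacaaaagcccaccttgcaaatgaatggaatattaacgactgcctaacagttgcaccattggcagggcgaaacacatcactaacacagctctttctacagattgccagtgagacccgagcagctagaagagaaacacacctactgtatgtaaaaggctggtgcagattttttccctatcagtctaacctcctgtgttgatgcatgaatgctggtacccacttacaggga
Gm3279: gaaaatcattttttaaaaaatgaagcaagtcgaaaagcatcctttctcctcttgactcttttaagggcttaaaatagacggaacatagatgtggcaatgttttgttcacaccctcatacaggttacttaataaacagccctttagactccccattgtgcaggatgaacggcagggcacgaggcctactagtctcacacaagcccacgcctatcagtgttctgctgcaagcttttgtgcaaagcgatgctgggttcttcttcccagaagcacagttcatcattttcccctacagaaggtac

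*Gm3279* was low in every mouse, and its groups did not overlap. How many of all tested genes had every Fkbp5Nex mouse above every Fkbp5lox/lox mouse was not counted. In the Fkbp5lox/lox mice 28, 30, 34, 44, 50 and 74 it had 10, 16, 9, 3, 10 and 7 reads. In the Fkbp5Nex mice 12, 32, 42, 52, 54 and 64 it had 35, 43, 28, 54, 53 and 32 reads. This corresponds to 0.41 ± 0.177 CPM and 1.96 ± 0.502 CPM (SD, n = 6 each). The log2 difference in the fit was 2.31 (SE 0.28, edgeR adjusted p = 0.000374). Without mouse 12 the log2 fold change was 2.02 (SE 0.44, edgeR adjusted p = 0.277), and without mouse 12 and without surrogate variables it was 2.29 (SE 0.29, edgeR adjusted p = 0.000376). *Neurod6* stood at 268.5, 299, 332, 159, 249.4 and 241 CPM in the Fkbp5lox/lox mice, and at 92.7, 136, 160, 182, 205 and 158 CPM in the Fkbp5Nex mice, in the same order. Apart from Fkbp5lox/lox mouse 44, every Fkbp5lox/lox mouse was above every Fkbp5Nex mouse. The log2 fold change of *Neurod6* was -0.70 (SE 0.22, edgeR adjusted p = 0.311) and did not pass. The list of forebrain glutamatergic neuron genes, *Slc17a7*, *Camk2a* and *Neurod6* among them, gave 0 of 9 past the threshold in edgeR's test, 1 at an unadjusted p below 0.05 and a median of -0.03.

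**Figure D1:**
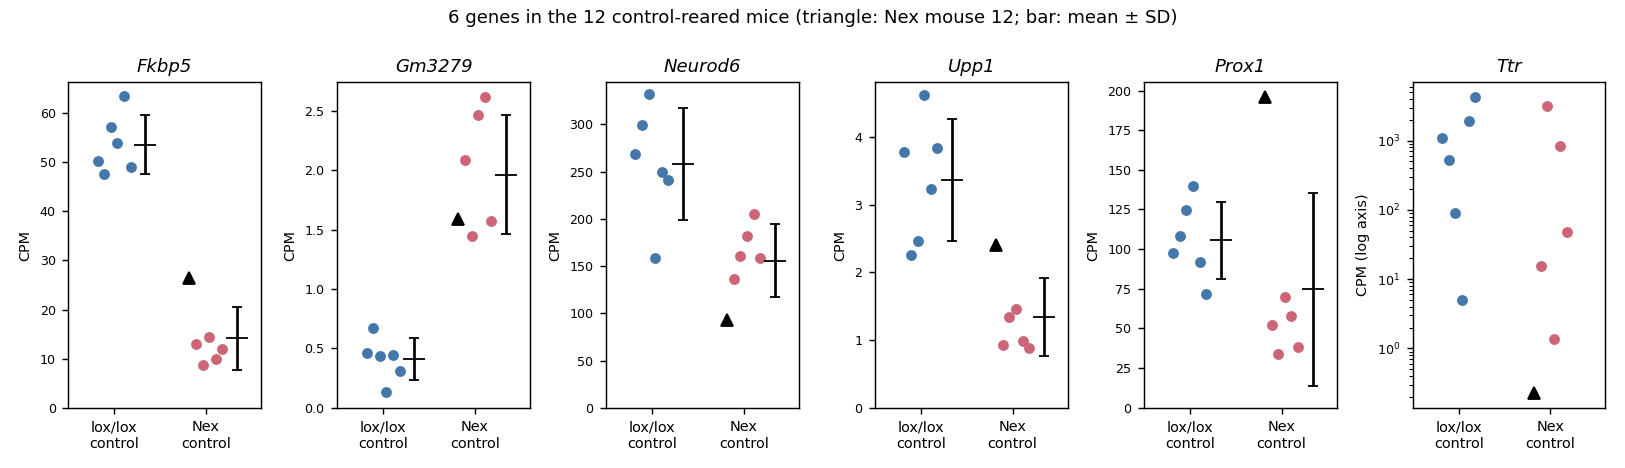
Expression of 6 genes in the 12 control-reared mice, in CPM (log axis for *Ttr*), with 1 point per mouse, Fkbp5Nex mouse 12 as a black triangle, and the mean ± SD beside each group except for *Ttr*. *Fkbp5* and *Gm3279* separate the genotypes without overlap, *Prox1* and *Upp1* do so apart from mouse 12, *Neurod6* apart from Fkbp5lox/lox mouse 44, and *Ttr* runs over several orders of magnitude in both groups.

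Of the genes of dentate granule cells, in which Cre does not delete *Fkbp5*, 3 were called lower in the Fkbp5Nex control mice. All 18 listed genes were tested and had a negative log2 fold change, with a median of -0.53. Of these, 3 (*Npnt*, *Prox1* and *Dsp*) passed the threshold, and 16 had an unadjusted p below 0.05, as did 795 of all tested genes (4.9%) in that direction and 627 (3.87%) in the other. The genes *Prox1*, *Dsp*, *Npnt*, *Fam163b* and *Chst15* entered the list after an earlier analysis of these mice had named them, and are no independent evidence. Of the remaining 13 genes, 0 passed in edgeR's test, 11 had an unadjusted p below 0.05, and the median was -0.41.

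*Prox1*, the homeobox factor that specifies granule cell identity, was called lower. In the order of mice given above it stood at 97.4, 108, 125, 140, 91.6 and 71.7 CPM in Fkbp5lox/lox mice. In Fkbp5Nex mice it stood at 196, 51.9, 34.1, 69.9, 57.8 and 38.3 CPM. Mouse 12 was the highest of the 12 mice and the other 5 Fkbp5Nex mice were all below the lowest Fkbp5lox/lox mouse. The log2 fold change was -0.68 (SE 0.10, edgeR adjusted p = 0.00159). Without mouse 12 it was -0.39 (SE 0.11, edgeR adjusted p = 0.978), and without mouse 12 and without surrogate variables it was -1.06 (SE 0.32, edgeR adjusted p = 0.553). *Prox1* (ENSMUSG00000010175) lies on chromosome 1 from 190118035 to 190170714 on the minus strand, and *Prox1os* and *Gm28172* overlap it on the other strand.

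The promoter of *Prox1* is shown as that of the granule cell regulator in the list, and because it holds 1 CAGATG, in capitals, beginning 179 bases before the RefSeq start. The window is chr1:190170778-190171077 on the minus strand of GRCm38.p6. Among the first promoters of 27025 genes of the same length, 17.2% held the motif on either strand. Of the 17 dentate granule genes with a promoter there, 3 (*Prox1*, *Dock10* and *Chst15*) held it. A match is a description of letters and not of a bound site.
Prox1: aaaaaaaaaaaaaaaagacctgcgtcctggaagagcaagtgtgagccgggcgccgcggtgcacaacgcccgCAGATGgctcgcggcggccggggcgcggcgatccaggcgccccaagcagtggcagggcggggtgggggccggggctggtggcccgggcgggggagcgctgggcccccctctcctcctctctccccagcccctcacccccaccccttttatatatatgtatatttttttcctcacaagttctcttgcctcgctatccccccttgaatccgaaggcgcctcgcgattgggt

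*Npnt* and *Dsp* were also called lower, with mouse 12 within the Fkbp5lox/lox range. *Npnt*, which encodes the extracellular matrix protein nephronectin, stood at 23.8, 22.6, 26.3, 39.7, 22.0 and 16.9 CPM in Fkbp5lox/lox mice and at 38.9, 9.23, 7.63, 17, 10.2 and 8.60 CPM in Fkbp5Nex mice. Mice 12 and 52 were within the Fkbp5lox/lox range, and the other 4 Fkbp5Nex mice were below it. Its log2 fold change was -0.97 (SE 0.13, edgeR adjusted p = 0.000714), and without mouse 12 it was -0.76 (SE 0.16, edgeR adjusted p = 0.251). Without mouse 12 and without surrogate variables it was -1.26 (SE 0.34, edgeR adjusted p = 0.553). *Dsp*, which encodes the junction protein desmoplakin, stood at 26.2, 19.9, 36.0, 52.4, 29.2 and 20 CPM in Fkbp5lox/lox mice and at 30.9, 6.41, 9.54, 7.82, 12.2 and 5.16 CPM in Fkbp5Nex mice. All Fkbp5Nex mice but mouse 12 were below the lowest Fkbp5lox/lox mouse. The log2 fold change of *Dsp* was -1.43 (SE 0.21, edgeR adjusted p = 0.00241), and without mouse 12 it was -1.49 (SE 0.28, edgeR adjusted p = 0.158). Without mouse 12 and without surrogate variables it was -1.90 (SE 0.35, edgeR adjusted p = 0.0727). *Npnt* (chromosome 3, 132881745 to 132950291) overlaps the short gene *Gm23196* and *Dsp* (chromosome 13, 38151294 to 38198577) the gene *Gm10129*, both on the other strand.

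The other 15 dentate granule genes did not pass in edgeR's test. DESeq2's Wald test with the same surrogate variables and threshold called 10 of the 18 and 6 of the 13, adding *Glis3*, *Trpc6*, *Tdo2*, *Stxbp6*, *Sema5a*, *Rfx3* and *Chst15* to the 3. Of all 16209 tested genes, that test called 44 lower and 9 higher, against 11 and 1 in edgeR's test. *Tdo2*, tryptophan 2,3-dioxygenase, stood at 5.08 to 14.3 CPM in Fkbp5lox/lox mice and at 1.77 to 9.32 CPM in Fkbp5Nex mice (log2 fold change -1.22, SE 0.26, edgeR adjusted p = 0.0498). *Glis3*, a zinc finger transcription factor, stood at 18.8 to 31.4 CPM and 7.78 to 53.0 CPM (log2 fold change -0.59, SE 0.12, edgeR adjusted p = 0.0356). In both genes the 5 Fkbp5Nex mice other than mouse 12 were below every Fkbp5lox/lox mouse. *C1ql2*, a synaptic organiser at mossy fibre terminals, stood at 55.4 to 103 CPM and 14.9 to 169 CPM (log2 fold change -0.62, SE 0.17, edgeR adjusted p = 0.164). The remaining log2 fold changes were -0.88 for the lactase gene *Lct*, -0.59 for the cation channel gene *Trpc6*, -0.54 for *Fam163b*, -0.53 for *Plk5*, -0.41 for *Ablim3*, -0.40 for *Stxbp6*, -0.35 for the transcription factor gene *Rfx3*, -0.30 for *Chst15*, -0.29 for the semaphorin gene *Sema5a*, -0.18 for *Dock10*, -0.05 for the Notch coactivator gene *Maml2* and -0.02 for *Pdzd2*. *Plk5*, *Pdzd2*, *Maml2* and *Dock10* had a positive value without mouse 12 in the fit with surrogate variables, and -0.73, -0.19, -0.29 and -0.45 without mouse 12 and without surrogate variables. Several of the 15 genes overlap other annotated genes.

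The dentate content of each punch was described by the mean log2 CPM of the 18 genes. In the Fkbp5lox/lox mice 28, 30, 34, 44, 50 and 74 it was 5.23, 5.42, 5.52, 5.72, 5.17 and 5.05. In the Fkbp5Nex mice 12, 32, 42, 52, 54 and 64 it was 6.06, 4.57, 4.18, 4.97, 4.64 and 4.30. Mouse 12 was therefore above all other control mice, and the other 5 Fkbp5Nex mice were below all Fkbp5lox/lox mice. The summed level of the list ran from 793 to 1220 CPM in Fkbp5lox/lox mice and from 484 to 1691 CPM in Fkbp5Nex mice, or to 800 CPM without mouse 12. For the 13 genes that had not been named earlier, the difference of the group means was -0.48 on the log2 scale, and -0.74 without mouse 12. Without mouse 12, 6 of the 18 genes had every Fkbp5Nex mouse below every Fkbp5lox/lox mouse (*Prox1*, *Dsp*, *Tdo2*, *Glis3*, *Trpc6* and *Dock10*), as did 75 of all 16209 genes (0.463%). With mouse 12 in, 0 of the 18 did. Mouse 12 was left out because of its dentate level, so that the count and the ranges without it are a description.

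**Figure D2:**
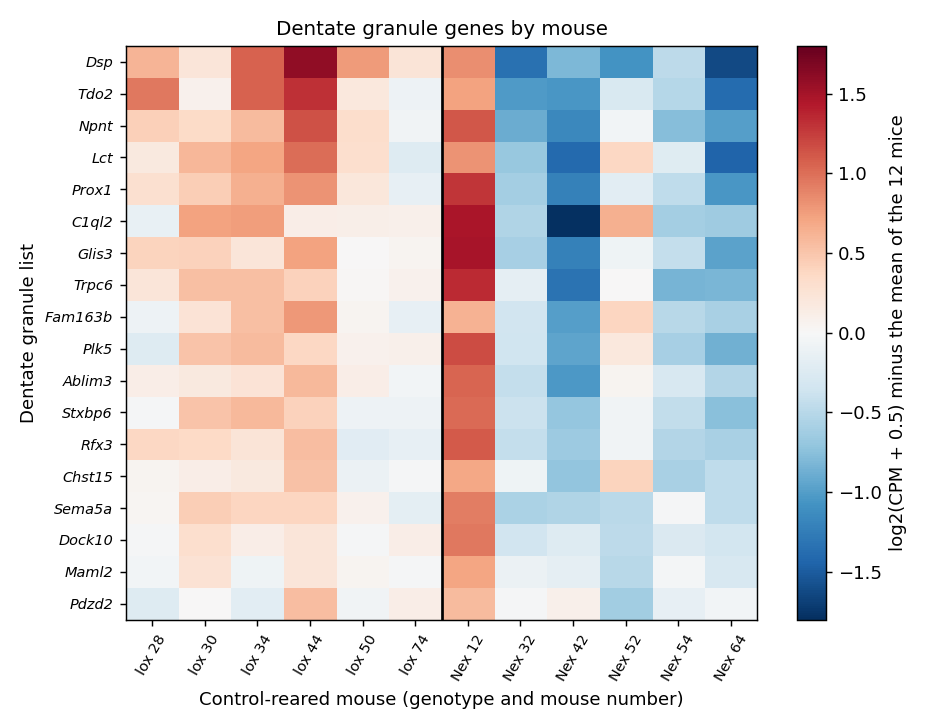
Log2(CPM + 0.5) of the 18 dentate granule genes in the 12 control-reared mice, each gene shown as the difference from its mean over the 12 mice, with red above and blue below that mean, and a black line between the genotypes. Fkbp5Nex mouse 12 is above the mean in all 18 genes and the highest mouse in 13 genes, while the other 5 Fkbp5Nex mice are mostly blue.

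The values of the dentate list depended on mouse 12 and on the surrogate variables. With surrogate variables, the dentate median was -0.53 with mouse 12 and -0.21 without it, where 14 of 18 genes were negative and 7 had an unadjusted p below 0.05. Without surrogate variables, the median was -0.30 with mouse 12, where 2 genes had an unadjusted p below 0.05, and -0.71 without it, where 14 did. Of all tested genes, 2.67% were lower at that p with surrogate variables and without mouse 12. That share was 1.62% with mouse 12 and no surrogate variables, and 4.41% with neither. The fit with neither was chosen after seeing the data, with mouse 12 left out for its dentate level. In the fits that left out mouse 12, the surrogate variables or both, and in the 12 control mice alone, 0 of the 18 genes passed an FDR of 0.02 by edgeR. When the mean log2 CPM of the 13 genes took the place of the surrogate variables, the median of the list was 0.02, *Fkbp5* and *Gm3279* remained called, and *Npnt*, *Prox1* and *Dsp* had log2 fold changes of -0.34, -0.13 and -0.999, none of which passed. Left out singly, Fkbp5Nex mouse 52 also ended the calls of all 3 dentate genes, as did Fkbp5lox/lox ELS mouse 8, the mouse with the highest dentate level of the series (6.53), which entered the fit through the surrogate variables and the shared spread. Without Fkbp5lox/lox mouse 44, *Npnt* alone of the 3 was called.

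**Figure D3:**
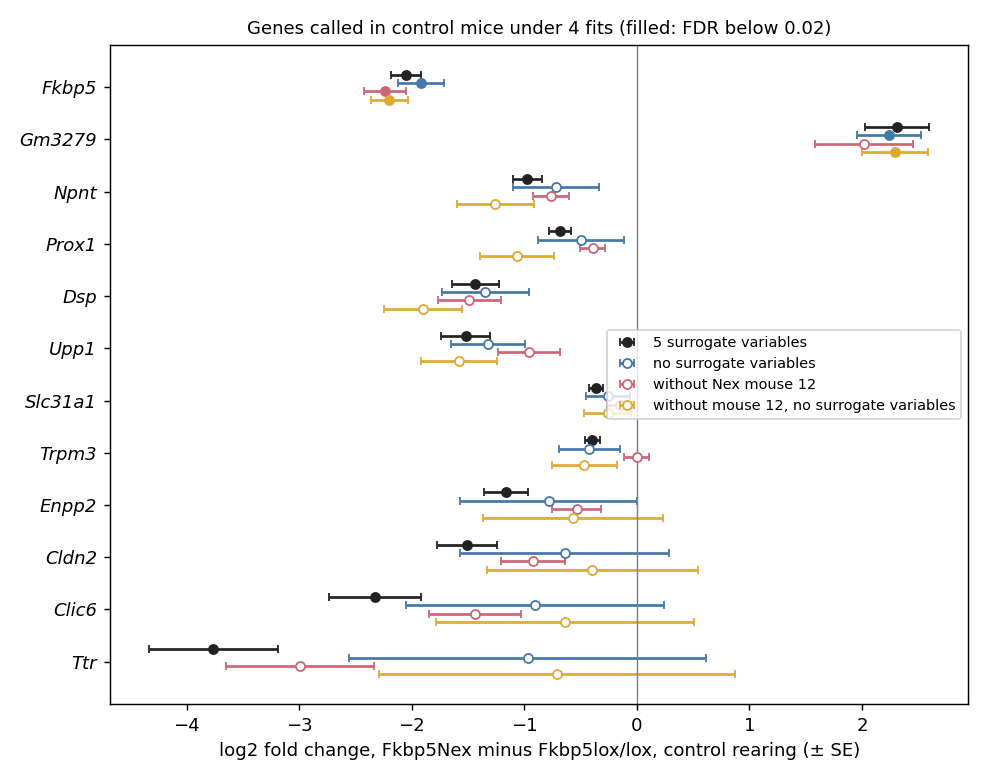
Log2 fold change (Fkbp5Nex minus Fkbp5lox/lox, control rearing, ± SE) of the 12 genes called in control mice, with 5 surrogate variables (black), without surrogate variables (blue), without Fkbp5Nex mouse 12 (red) and without both (yellow), filled where the FDR was below 0.02. *Fkbp5* is filled in all 4 fits and *Gm3279* in 3, whereas the other 10 genes are filled only with surrogate variables and mouse 12 in the model.

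Markers of the other hippocampal fields gave no called gene in edgeR's test with all mice. For the counts below, 3.87% of all tested genes were higher and 4.9% lower with an unadjusted p below 0.05. Of 9 tested CA1 genes, 0 passed and 0 had an unadjusted p below 0.05 in edgeR's test, with a median of -0.02. *Fibcd1*, a chitin-binding receptor gene used as a CA1 marker, ran from 83.5 to 434 CPM in Fkbp5lox/lox mice and from 43.4 to 218 CPM in Fkbp5Nex mice (log2 fold change -0.49, SE 0.26), and *Mpped1* had a log2 fold change of -0.27 (SE 0.15). Of 9 CA2 genes, 0 passed in edgeR's test and 2 had an unadjusted p below 0.05. These were *Ntf3*, the neurotrophin-3 gene, at -0.56 (SE 0.22), highest in mouse 12, and *Amigo2*, a cell adhesion gene, at 0.34 (SE 0.16), next to lowest in mouse 12. Of 10 CA3 genes, 0 passed in edgeR's test, 7 were positive, and 3 higher and 1 lower gene had an unadjusted p below 0.05. *Bok*, a BCL2 family gene of CA3 neurons, ran from 23.3 to 80.0 CPM in Fkbp5lox/lox mice and from 43.7 to 96.3 CPM in Fkbp5Nex mice (log2 fold change 0.32, SE 0.07, edgeR adjusted p = 0.0498). It was called by DESeq2's Wald test (adjusted p = 0.00304) and, in edgeR's test, without Fkbp5Nex mouse 54. Mossy cell genes of the hilus gave a median of -0.33 over 7 genes, with 0 called and 3 at an unadjusted p below 0.05 in edgeR's test, 2 lower and 1 higher. Genes of immature granule neurons and progenitors gave a median of 0.02 over 10 genes, with 0 called and 0 at an unadjusted p below 0.05.

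Synaptic genes were examined as receptors and release machinery. Of 21 glutamate receptor genes, 0 passed in edgeR's test and 1 had an unadjusted p below 0.05. This was *Grm2*, a presynaptic metabotropic receptor of mossy fibres, at 17.7 to 32.2 CPM in Fkbp5lox/lox mice, 54.3 CPM in mouse 12 and 5.57 to 27.2 CPM in the other Fkbp5Nex mice (log2 fold change -0.61, SE 0.17, edgeR adjusted p = 0.192). Of 12 GABA-A receptor subunit genes, 0 passed in edgeR's test and 1 had an unadjusted p below 0.05. This was *Gabrd*, the delta subunit of extrasynaptic receptors, at 13.9 to 24.3 CPM in Fkbp5lox/lox mice, 27.4 CPM in mouse 12 and 6.44 to 17.4 CPM in the other Fkbp5Nex mice (log2 fold change -0.37, SE 0.17, edgeR adjusted p = 0.563). With the dentate level as the covariate, both log2 fold changes had the opposite sign. Of 12 genes of synaptic vesicle release, 0 passed and 0 had an unadjusted p below 0.05 in edgeR's test, with a median of 0.05.

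Choroid plexus genes had overlapping levels in the genotypes, and 4 of them were called lower. Of 14 listed genes, 9 passed the filter on low counts, all 9 had a negative log2 fold change and an unadjusted p below 0.05, and 4 passed the threshold. Over all 16209 genes 0.0679% were called lower, and 795 (4.9%) were lower with an unadjusted p below 0.05. The 9 are those with enough reads in every mouse of some group, so that a gene could enter through the group where it was high, and their counts are a description. With filterByExpr or with no filter on low counts all 14 were tested and negative, 0 passed in edgeR's test, 13 and 11 had an unadjusted p below 0.05, and the medians were -1.0 and -0.86, against -1.51 for the 9. Under these 2 filters 5.2% and 5.63% of all genes were lower with an unadjusted p below 0.05. *Ttr*, the thyroid hormone carrier transthyretin, had 1077, 531, 89.0, 4.93, 1925 and 4235 CPM in the Fkbp5lox/lox mice and 0.227, 15.6, 3132, 1.37, 821 and 47.2 CPM in the Fkbp5Nex mice, so that both groups ran from near absence to very high levels. Its log2 fold change was -3.76 (SE 0.57, edgeR adjusted p = 0.00306) with surrogate variables and -0.97 (SE 1.58, edgeR adjusted p = 0.992) without them. *Clic6*, a chloride channel gene, had -2.33 (SE 0.41, edgeR adjusted p = 0.0152) and -0.90 (SE 1.15). *Cldn2*, a tight junction gene, had -1.51 (SE 0.26, edgeR adjusted p = 0.0139) and -0.64 (SE 0.93). *Enpp2*, which encodes autotaxin, had -1.16 (SE 0.20, edgeR adjusted p = 0.0125) and -0.78 (SE 0.79). Without mouse 12 and with surrogate variables, *Ttr*, *Clic6*, *Cldn2* and *Enpp2* had log2 fold changes of -2.99, -1.44, -0.92 and -0.54. The median of the 9 genes was then -0.92 and 0 of them passed. In edgeR's test 6 of the 9 had an unadjusted p below 0.05, against 2.67% of all tested genes in that direction. Without mouse 12 and without surrogate variables, the 4 genes had -0.71, -0.64, -0.39 and -0.57, and the median of the 9 was -0.57. The mean log2 CPM of the 9 genes ran from 1.99 to 7.10 in Fkbp5lox/lox mice and from 1.40 to 6.73 in Fkbp5Nex mice, with overlap over nearly the whole range. With the dentate level and the choroid plexus level without *Ttr* as covariates, *Fkbp5* alone was called. That choroid plexus level is built from the 8 tested genes other than *Ttr*, so it removes part of their differences by construction.

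**Figure D4:**
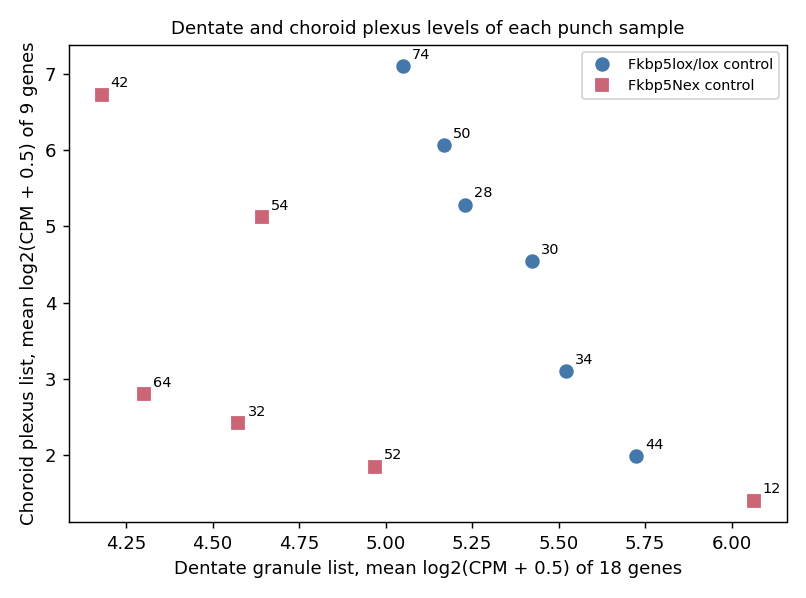
Mean log2(CPM + 0.5) of 18 dentate granule genes (x axis) and of 9 choroid plexus genes (y axis) in each of the 12 control-reared mice, labelled by mouse number. The 5 Fkbp5Nex mice other than mouse 12 lie to the left of all Fkbp5lox/lox mice, from 4.18 to 4.97 against 5.05 to 5.72, while on the y axis both groups spread over most of the range.

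The remaining called genes belonged to no list. *Upp1*, uridine phosphorylase of pyrimidine salvage (ENSMUSG00000020407, chromosome 11, 9118103 to 9136170), overlaps no other gene. It had 3.77, 2.26, 2.46, 4.61, 3.23 and 3.84 CPM in Fkbp5lox/lox mice and 2.41, 0.923, 1.34, 1.46, 0.988 and 0.884 CPM in Fkbp5Nex mice. Mouse 12 was within the Fkbp5lox/lox range and the other 5 were below it. The log2 fold change was -1.52 (SE 0.22, edgeR adjusted p = 0.00159), and without mouse 12 it was -0.96 (SE 0.28, edgeR adjusted p = 0.978). Without mouse 12 and without surrogate variables it was -1.58 (SE 0.34, edgeR adjusted p = 0.320). *Slc31a1*, the high-affinity copper importer, ran from 22.4 to 56.8 CPM in Fkbp5lox/lox mice and from 22.5 to 42.2 CPM in Fkbp5Nex mice (log2 fold change -0.36, SE 0.06, edgeR adjusted p = 0.00914), with -0.15 (SE 0.11) without mouse 12, and *Cdc26* overlaps it on the other strand. *Trpm3*, a heat-sensitive cation channel gene, ran from 54.6 to 130 CPM and from 17.8 to 98.4 CPM (log2 fold change -0.39, SE 0.07, edgeR adjusted p = 0.0139). Without mouse 12 and with surrogate variables its log2 fold change was -0.0011. With neither mouse 12 nor surrogate variables, *Slc31a1* and *Trpm3* had -0.26 (SE 0.21) and -0.47 (SE 0.29), and neither passed. Several small genes overlap *Trpm3*. In both of these genes Fkbp5lox/lox mouse 74 and Fkbp5Nex mouse 42, the mice with the highest choroid plexus level of their groups, were the highest of their groups, and the part of that level in the result was not tested.

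Apart from *Gm3279*, no gene was called higher in edgeR's test, while DESeq2's Wald test called 9 genes higher, among them *Vim*, *Mfap1b*, *Bok*, *Kcnt1* and *Gm10863*. Those with the next smallest p did not pass in edgeR's test, with log2 fold changes of 0.81 for the noncoding RNA *Gm10863* and 0.99 for the noncoding RNA *1110002J07Rik* (edgeR adjusted p = 0.0356 and 0.0387), 0.44 for *Vim*, the intermediate filament vimentin, 0.51 for the splicing factor gene *Mfap1b*, which has a near-identical copy and uncertain counts, 0.37 for the kinase gene *Alpk1*, 0.31 for the potassium channel gene *Kcnt1*, 0.31 for the adaptor gene *Shc1* and 0.60 for *P4ha3*, a collagen prolyl hydroxylase. *Vim* stood at 92.4 CPM in mouse 12 and 95.1 CPM in mouse 52, against 28.3 to 49.2 CPM in the other 10 mice. Of the cell type lists outside the neurons, astrocyte, microglia, endothelial and mural, meninges, oligodendrocyte and precursor genes gave 0 calls in edgeR's test. Their medians were 0.12, 0.07, 0.19, 0.38, 0.04 and 0.23. Members higher with an unadjusted p below 0.05 numbered 3 of 10, 0 of 10, 3 of 10, 2 of 5, 0 of 11 and 1 of 4, against 3.87% of all tested genes. The meninges list also had 1 lower at that level, against 4.9% of all tested genes, and its 5 log2 fold changes ran from -1.05 to 0.61. Mouse 12 had the highest mean log2 CPM of the 12 mice in the first 4 of these lists. Their group means were 7.90, 4.99, 4.62 and 3.33 in Fkbp5lox/lox mice. In Fkbp5Nex mice they were 8.05, 5.06, 4.76 and 3.48, and without mouse 12 they were 7.94, 4.97, 4.68 and 3.25. GABAergic interneuron genes gave 0 calls, 0 at an unadjusted p below 0.05 and a median of 0.00494.

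Thalamic markers, which show tissue beside the hippocampus, differed in level between punches. Of 13 genes, 12 had a positive log2 fold change and 0 passed in edgeR's test, with 5 at an unadjusted p below 0.05 and a median of 0.42. Over all 16209 genes 8006 were positive, and 627 (3.87%) were positive with an unadjusted p below 0.05. The median depended on the fit. With surrogate variables it was 0.071 without Fkbp5Nex mouse 12, with 8 positive and 1 at an unadjusted p below 0.05. It was 0.061 without Fkbp5lox/lox ELS mouse 8, with 8 positive and 0 at an unadjusted p below 0.05. It was 0.74 without Fkbp5lox/lox mouse 28, with 13 positive and 9 at an unadjusted p below 0.05. Without surrogate variables it was 0.70 with mouse 12 (12 positive, 1 at an unadjusted p below 0.05). Leaving out mouse 12 as well, it was 0.75 (13 positive, 3 at an unadjusted p below 0.05 in edgeR's test). The share of 3.87% belongs to the fit with all mice and surrogate variables. In the other fits this share was not counted. *Tnnt1*, a troponin gene used as a thalamic marker, was 1.19 to 5.41 CPM in Fkbp5lox/lox mice and 1.82 to 17.2 CPM in Fkbp5Nex mice (log2 fold change 1.06, SE 0.38, edgeR adjusted p = 0.418), with mice 42, 52 and 54 above every Fkbp5lox/lox mouse. *Rgs16*, a regulator of G protein signalling, was 3.33 to 7.58 CPM and 4.00 to 17.2 CPM (log2 fold change 0.64, SE 0.22, edgeR adjusted p = 0.392), with the same 3 mice highest. The mean log2 CPM of the thalamic list was 3.58 to 4.24 in these 3 mice, 2.78 to 3.03 in the other 3 Fkbp5Nex mice and 2.63 to 3.39 in Fkbp5lox/lox mice. Neocortical genes gave a median of 0.09 over 6 genes and ventral hippocampal genes of -0.06 over 5, with 0 called and 1 at an unadjusted p below 0.05 in each.

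The same genotypes were compared in the 12 ELS mice, none of which is a control mouse, although all 24 mice shared 1 model. There 2 genes passed, 0.0123% of those tested, *Fkbp5* with a log2 fold change of -2.01 (SE 0.13, edgeR adjusted p = 6.9e-09) and *Gm3279* with 3.39 (SE 0.31, edgeR adjusted p = 2.24e-06). *Neurod6* had -1.09 (SE 0.23, edgeR adjusted p = 0.319). Of the 18 dentate granule genes, 17 were negative, 0 passed and 7 had an unadjusted p below 0.05, against 565 of all tested genes (3.49%), with a median of -0.24. *Npnt*, *Prox1*, *Dsp* and *Upp1* had log2 fold changes of -0.43, -0.32, -0.74 and -0.78, each with an edgeR adjusted p of 0.596 or 0.645. The mean log2 CPM of the 18 genes was 4.72 to 6.53 in Fkbp5lox/lox ELS mice and 4.44 to 5.57 in Fkbp5Nex ELS mice. Fkbp5Nex ELS mouse 60 had both the highest dentate level (5.57) and the most remaining *Fkbp5* (23.1 CPM against 10.0 to 15.7 CPM) of its group, as mouse 12 had in the control group (6.06 and 26.5 CPM).

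The difference between rearing conditions was tested as the interaction of genotype and rearing, and 0 of 16209 genes passed (0%), with 641 at an unadjusted p below 0.05 in edgeR's test and 0 passing in DESeq2's Wald test. For *Fkbp5* the interaction was -0.04 (edgeR adjusted p = 0.999), for *Gm3279* -1.07, for *Prox1* -0.36, for *Npnt* -0.55 and for *Dsp* -0.69 on the log2 scale (edgeR adjusted p = 0.999 for each). No gene was thus shown to differ between the rearing conditions in its response to the genotype.

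**Figure D5:**
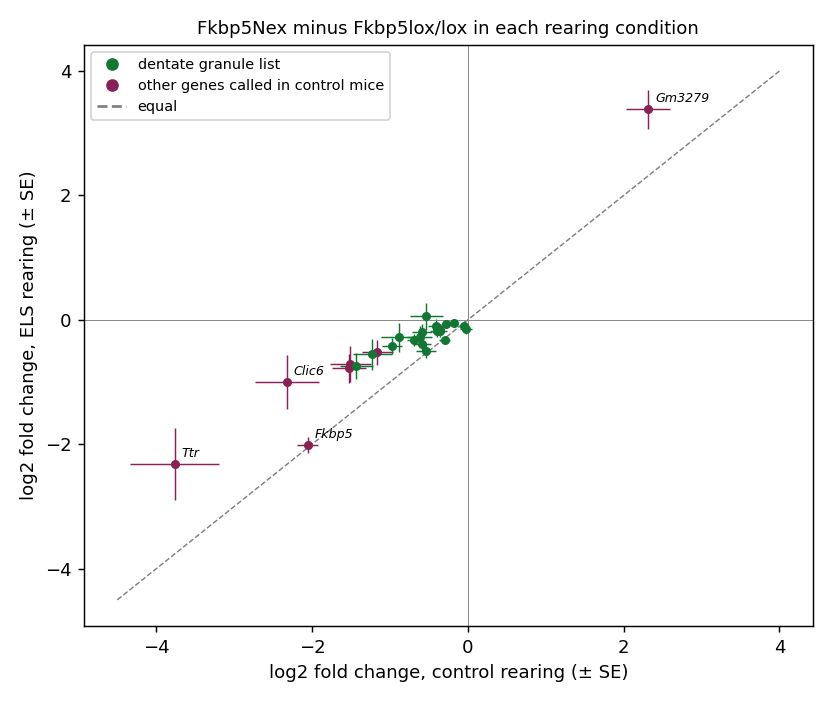
Log2 fold change of Fkbp5Nex against Fkbp5lox/lox in control mice (x axis) and in ELS mice (y axis), ± SE, for the 18 dentate granule genes (green) and the other genes called in control mice (purple), with the line of equal values dashed. *Fkbp5* lies on the line, *Gm3279* above it, and most lower genes lie between the line and 0 on the y axis.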

How the data were processed

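Bulk mRNA of hippocampal punches from 24 female mice was analysed, 6 per genotype and rearing group. Raw counts, 1 per gene and mouse, are what the authors deposited. After cleaning by the sequencing company, paired reads had been mapped with HISAT2 2.0.5 and assigned to genes with featureCounts 1.5.0-p3, per the methods and the submitters' processing notes. The genome build, annotation and use of strand are not given in the sources used here, so values of genes that overlap others are uncertain. Ensembl identifiers were looked up in GENCODE vM21 (GRCm38) for positions, which were found for 16152 of 16209 tested genes, and *Gm3279* is the vM21 name of a gene listed under a clone name.

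From the counts, genes that reached 10 counts in all mice of any group (16209 of 46983) were scaled by TMM and tested in R 4.3.3 with edgeR 4.0.16 (quasi-likelihood test, Benjamini-Hochberg adjustment, FDR 0.02), with 4 group means and 5 surrogate variables (sva 3.50.0) over all 24 mice. The authors used DESeq2 with surrogate variables, and DESeq2 1.42.0 was run as an alternative. CPM are TMM-scaled, and log2 CPM were taken after adding 0.5. Each SE is the absolute log2 fold change over the root of F. The groups explained from 3.31% to 23.0% of the variance of a surrogate variable. No 2 mice of a group agreed within sampling noise (lowest chi-square per degree of freedom 5.85). Replicates are separate mice, and a sequencing batch is not given in the sources used here, so no result was recomputed within batches. Depth limits genes near 10 counts most. The first principal component of the 500 most variable genes held 41.5% of the variance.

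The members and gene lists were chosen with earlier results of these data known. Genes named are *Fkbp5*, *Neurod6*, those past the threshold, the 10 with the smallest p where fewer passed in a direction, all tested dentate granule genes, the 2 genes with the smallest p of other lists, and the first 3 of a list as markers. Lists are described by counts and medians with no set test. Alternatives were no surrogate variables, the 12 control mice alone, other size factors, filters, tool and threshold, covariates from marker lists, and each mouse left out. Tables were made in Python 3.11.15 with pandas 2.3.3, numpy 2.4.6 and matplotlib 3.10.9.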

Additional observations from a re-analysis of the deposited data

Results flagged for a closer look

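Values far from the rest of their group were sought among 110 groups of 6 control-reared mice, of which 9 passed a 95% limit for the gap to the nearest mouse, where chance gives about 1 in 20. *Slc31a1* stood at 42.2 CPM in Fkbp5Nex mouse 42, against 22.5 to 27 CPM in the other mice of its group. In Fkbp5Nex mouse 12, *Sema5a* stood at 165 CPM against 58.8 to 85.5 CPM, *Dock10* at 163 CPM against 61.0 to 72.3 CPM, and *Rfx3* at 250 CPM against 73.6 to 112 CPM. The mean log2 CPM of steroid receptors and their chaperones was lowest in mouse 12, at 6.35 against 6.67 to 6.74.

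In Fkbp5lox/lox mouse 44, the mean log2 CPM of CA3 genes was lowest, at 4.07 against 4.73 to 5.06. That of GABAergic interneuron genes was highest there, at 5.99 against 5.59 to 5.73, as was that of glutamate receptor genes, at 6.58 against 6.25 to 6.37. In Fkbp5lox/lox mouse 50, the mean log2 CPM of microglia genes was lowest, at 4.70 against 4.98 to 5.10.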

How the results depend on the processing

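*Fkbp5* was called lower in every fit run. The counts of genes lower and higher in Fkbp5Nex control mice were 1 and 1 without surrogate variables, with the 12 control mice and no surrogate variables, with the dentate covariate, and with mouse 12 left out and no surrogate variables, and 1 and 0 with the 12 control mice alone and with dentate and choroid plexus covariates. They were 6 and 1 both with filterByExpr and with no filter on low counts, 44 and 9 in DESeq2's Wald test, which called all 12 genes, and 25 and 5 at an FDR of 0.05. Leaving out 1 mouse gave 1 to 13 lower genes and 0 to 3 higher. The count of lower genes was 1 without Fkbp5Nex mouse 12 or 52, 2 without Fkbp5lox/lox ELS mouse 8, 5 without Fkbp5lox/lox mouse 44, 6 without Fkbp5Nex mouse 64, and 7 without Fkbp5lox/lox mouse 74 or Fkbp5lox/lox ELS mouse 68. In ELS mice 2 to 3 genes were called with 1 mouse left out and 4 in DESeq2's Wald test. The interaction gave 0 to 1, with 1 gene without Fkbp5Nex mouse 52.

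The dentate covariate is built from 13 of the dentate granule genes, so it removes part of their differences by construction. Under it *Tdo2* and *Lct*, 2 of the 13, had log2 fold changes of -0.76 and -0.23. The log2 fold change of genes that changed sign was 0.21 for *C1ql2*, 0.24 for *Plk5*, 0.027 for *Stxbp6*, 0.0041 for *Glis3*, 0.014 for *Trpc6*, 0.074 for *Pdzd2*, 0.14 for *Maml2*, 0.062 for *Ablim3*, 0.039 for *Rfx3*, 0.014 for *Sema5a*, 0.12 for *Dock10*, 0.036 for *Chst15*, 0.056 for *Grm2* and 0.091 for *Gabrd*. With the dentate and choroid plexus covariates, chosen after seeing the data as were the fit without mouse 12 and surrogate variables and the leaving out of ELS mice, it was 0.082 for *Slc31a1*, 0.11 for *Enpp2*, 0.15 for *Trpm3*, -0.055 for *Kcnt1*, 0.036 for *C1ql2*, 0.20 for *Plk5*, 0.021 for *Stxbp6*, 0.0033 for *Glis3*, 0.14 for *Pdzd2*, 0.25 for *Maml2*, 0.020 for *Ablim3*, 0.033 for *Rfx3*, 0.090 for *Sema5a*, 0.28 for *Dock10* and 0.070 for *Gabrd*. The choroid plexus covariate is built from the 8 tested genes of its list other than *Ttr*, with *Enpp2* among them. It too removes part of their differences by construction. *Pdzd2* was 0.014 in the 12 control mice alone, 0.0022 with filterByExpr and 0.023 with no filter. With 1 mouse left out, *Plk5* ran from -0.70 to 0.083, *Pdzd2* from -0.11 to 0.085, *Maml2* from -0.13 to 0.15 and *Dock10* from -0.22 to 0.12. The causes were not tested. No paired analysis was possible because the mouse numbers are unique to each mouse.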
